A study of Mus musculus with 16 samples.

Results

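The Sprouty, Spred, DUSP and ETV feedback genes described here are 10 transcripts that FGF and ERK signalling commonly turns on: Spry1, Spry2, Spry4, Spred1, Spred2, Dusp4, Dusp6, Etv1, Etv4 and Etv5. They were chosen by name, for what the family is known to do and with earlier results of these data known, and all 10 were found among the 55414 gene identifiers of the count table. All 10 also passed the filter on low counts, as did 15285 genes in all. RNA was sequenced from cultured mouse heart fibroblasts in 4 groups of 4 libraries. The groups were Cre adenovirus with TGF-beta, GFP adenovirus with TGF-beta, Cre adenovirus without TGF-beta and GFP adenovirus without TGF-beta, and are called Cre or GFP cells with or without TGF-beta. Each replicate number is 1 cell preparation carried through all 4 groups, with preparations 1 and 4 labelled male and 2 and 3 female.

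The cells of all groups were used at passage 2 and kept without serum for 24 h. They were then exposed to a virus for 5 h and stimulated for 48 h. The treatment protocol names Has2fl/fl mice as their source, while the genotype label of every library reads wild type C57BL/6J. The Cre virus is meant to remove exon 2 of Has2, which encodes a hyaluronan synthase, and the GFP virus is its control. The protocol also lists a virus that overexpresses Has2, which was not analysed here. The protocol gives 20 ng/mL of bFGF and TGFb in a single phrase, and basic FGF was also part of the growth medium. Which dishes received basic FGF during stimulation is therefore not settled by the labels. No group is labelled as given basic FGF alone or neither factor, so a response to TGF-beta and a difference in basic FGF between the media cannot be told apart.

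FGF receptors activate the RAS-RAF-MEK-ERK kinase chain, and active ERK switches on genes that in turn dampen or carry out the response. Sprouty and Spred proteins act on the chain upstream of ERK, the phosphatases DUSP4 and DUSP6 remove the activating phosphates from ERK itself, and ETV1, ETV4 and ETV5 are the PEA3 group of ETS transcription factors, which carry the signal to target genes. Because their RNA usually follows the activity of the pathway, these genes are widely read as a transcriptional measure of FGF-ERK signalling, though other receptors that act through ERK also induce them.

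Promoter windows from 250 bases before to 50 bases after a gene's start were looked up by symbol in RefSeq (GRCm38.p6), an earlier build than that of the counts, and were found for 7 of the 10 genes, as 9 windows. Those of Spry2 and Etv5 are shown because both genes were called lower with TGF-beta under either virus and Etv5 has 2 annotated starts. Capitals mark the ETS core GGAA or its complement TTCC, each strand is that of the gene, and the windows lie at chr14:105896770-105897069 (minus strand) for Spry2, and at chr16:22438319-22438618 and chr16:22439521-22439820 (both minus strand) for Etv5.
Spry2: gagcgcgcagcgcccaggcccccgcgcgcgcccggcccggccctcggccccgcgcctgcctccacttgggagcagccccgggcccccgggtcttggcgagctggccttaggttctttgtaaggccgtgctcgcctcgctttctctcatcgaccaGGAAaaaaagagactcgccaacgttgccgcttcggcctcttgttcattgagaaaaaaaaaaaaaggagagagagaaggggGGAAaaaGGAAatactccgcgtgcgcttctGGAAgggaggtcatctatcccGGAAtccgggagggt
Etv5, first window: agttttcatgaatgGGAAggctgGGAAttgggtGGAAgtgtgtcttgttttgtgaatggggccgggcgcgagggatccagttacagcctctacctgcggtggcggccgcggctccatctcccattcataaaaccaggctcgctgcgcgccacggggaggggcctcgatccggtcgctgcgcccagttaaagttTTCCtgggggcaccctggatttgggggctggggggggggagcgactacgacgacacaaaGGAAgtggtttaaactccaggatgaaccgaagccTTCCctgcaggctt
Etv5, second window: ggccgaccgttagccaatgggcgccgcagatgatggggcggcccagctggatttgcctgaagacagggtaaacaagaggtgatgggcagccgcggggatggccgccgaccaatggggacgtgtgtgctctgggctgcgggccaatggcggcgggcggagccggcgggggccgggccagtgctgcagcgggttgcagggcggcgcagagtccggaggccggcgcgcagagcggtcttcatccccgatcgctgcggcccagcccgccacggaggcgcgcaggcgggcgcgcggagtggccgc
The Spry2 window held 5 GGAA cores on either strand and the first Etv5 window held 6, while the second Etv5 window held 0. The core is short, and 96% of the 32851 mouse windows of the same length held it, with a median of 3. The longer ETS motif CCGGAA, searched on both strands and overlapping GGAA, occurred in 14.9% of all windows and in 1 of the 9 windows here, the one of Spry2, where it lies just after the start. The AP-1 motif TGANTCA (7.81% of all windows) and the SMAD box CAGAC (49.6% of all windows) were in 0 of the 9. A match is only a run of letters, and a missing match says nothing of binding elsewhere.

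Library totals ranged from 17.9 to 48.7 M counts. Levels are given as CPM, each library's counts scaled to a common total after TMM adjustment. The targeted gene, Has2, averaged 16.5 ± 6.32 CPM in Cre cells and 16.8 ± 5.67 CPM in GFP cells with TGF-beta (SD, n = 4 each). Without TGF-beta it was at 14.7 ± 1.38 CPM in Cre cells and 18.7 ± 3.27 CPM in GFP cells. Neither difference passed the test (-0.03 ± 0.26 and -0.35 ± 0.26 on the log2 scale), and counts over the whole gene cannot separate exon 2, so the deletion was not checked by these data. Of the 8 fibroblast markers, all were measured and their summed level ran from 12820 to 36493 CPM over the 16 libraries. Preparation 4 held the 4 lowest of these sums (12820 to 15715 CPM), while the other preparations began at 22790 CPM. The sums mainly reflect 2 of the markers, Col1a1 and Col1a2. In GFP cells of preparation 1 without TGF-beta these had 10265 and 11005 CPM, where the sum was 24793 CPM.

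TGF-beta against no TGF-beta is the comparison in which the feedback genes differed. With TGF-beta, Spry2, Spry4 and Etv5 fell under both viruses, with log2 changes between -1.61 and -1.22, while Etv4 rose under both, by 0.97 in Cre cells and 1.07 in GFP cells. Etv1 was called lower in GFP cells. In Cre cells 3 of the 10 genes were called lower and 1 higher, against 16.3% of all tested genes lower and 14.0% higher. In GFP cells 4 were called lower and 1 higher, against 15.3% and 13.8% of all tested genes. A gene was called at an adjusted p under 0.05 in edgeR's quasi-likelihood test, with Benjamini-Hochberg adjustment over all 15285 genes. Every adjusted p below is from that test unless another is named.

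A second fit, with the preparation as a block, compares each preparation with itself. In that fit 7 genes were called lower and 1 higher in Cre cells, against 27.3% and 25.2% of all tested genes, and 7 lower and 1 higher in GFP cells, against 26.5% and 22.6%. The 7 were the same under both viruses: Spry1, Spry2, Spry4, Spred1, Dusp6, Etv1 and Etv5. Each of them was lower with TGF-beta in 4 of 4 preparations under both viruses. With each virus taken alone, 29.6% of all genes were lower in 4 of 4 in Cre cells and 31.2% in GFP cells. Etv4 was higher in 4 of 4 under both, where 25.5% of all genes were in Cre cells alone and 28.2% in GFP cells alone. The share of all genes with either pattern under both viruses was not computed. Without the block, the median log2 change of the 10 genes was -0.83 in Cre cells and -0.78 in GFP cells, where that of all tested genes was 0.02 and -0.02. With the block the median of the 10 genes was -0.92 and -0.86.

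**Figure D1:**
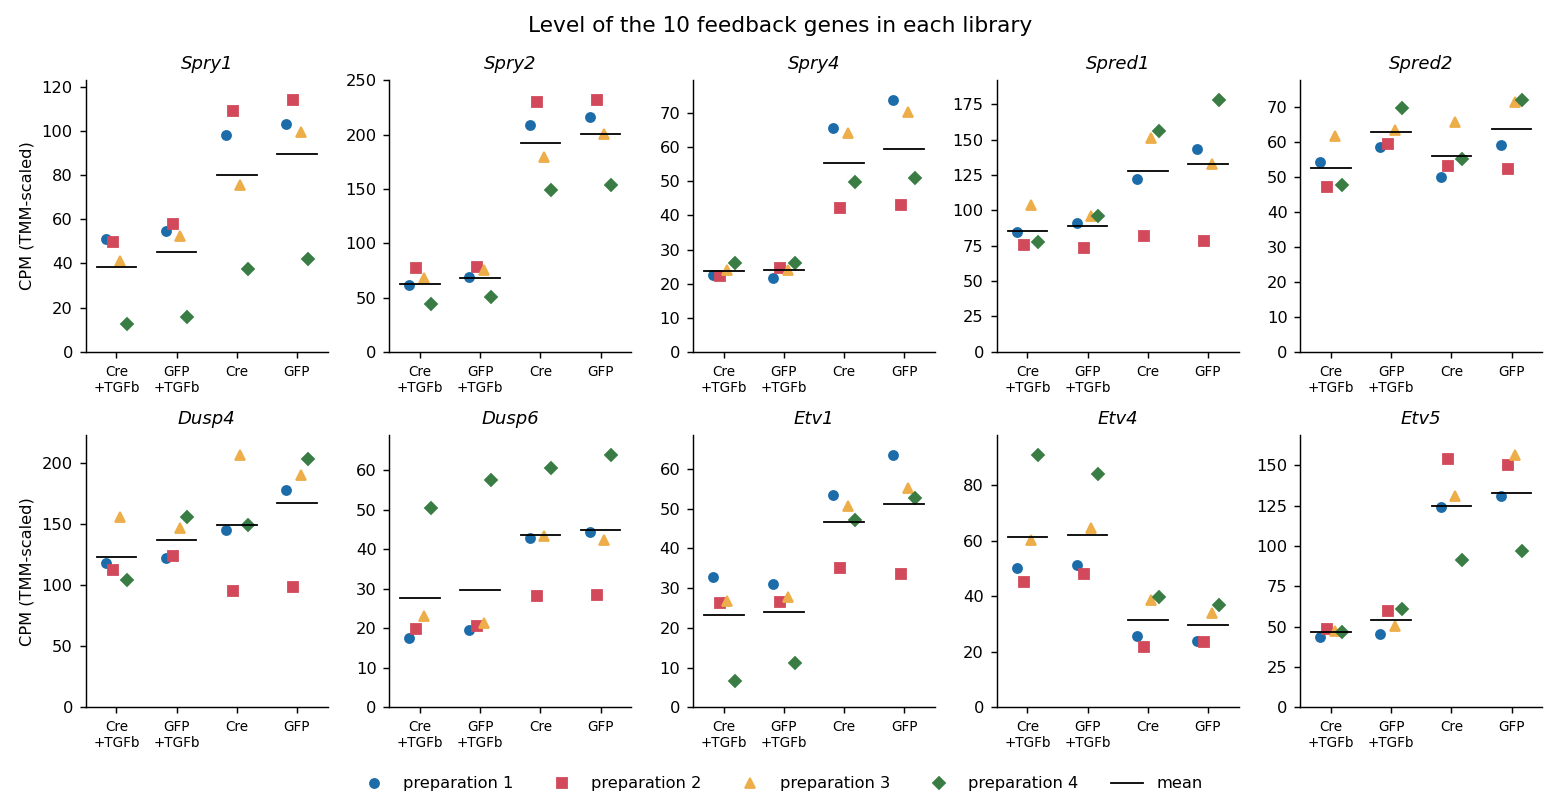
CPM of each feedback gene in each of the 16 libraries, by group (horizontal axis) with 1 symbol per cell preparation and a line at the group mean; each vertical axis is linear and starts at 0. Spry2, Spry4, Etv1 and Etv5 have all 8 libraries with TGF-beta below all 8 without it, and Etv4 has them above.

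The Sprouty genes encode inhibitors that receptor tyrosine kinase signalling induces against itself. Spry2 (ENSMUSG00000022114), the most abundant of them, had 61.4, 77.6, 67.9 and 44.5 CPM in Cre cells with TGF-beta (preparations 1 to 4), against 209, 230, 179 and 149 CPM in Cre cells without it. In GFP cells Spry2 had 68.7, 77.9, 75.2 and 50.7 CPM with TGF-beta, against 216, 232, 201 and 154 CPM without it. Every library with TGF-beta was below every library without it, and preparation 4 was the lowest within each group. The log2 change of Spry2 was -1.61 ± 0.19 in Cre cells (SE, adjusted p = 1.97e-05) and -1.56 ± 0.19 in GFP cells (adjusted p = 2.68e-05).

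Spry4 (ENSMUSG00000024427) had 22.5, 22.4, 24.1 and 26.0 CPM in Cre cells with TGF-beta, against 65.7, 42.1, 64.1 and 49.8 CPM without it. In GFP cells it had 21.7, 24.7, 23.9 and 26.2 CPM with TGF-beta, against 73.9, 43.2, 70.3 and 50.9 CPM without it. The libraries with TGF-beta lay close together, with an SD of 1.68 CPM in Cre cells and 1.88 CPM in GFP cells, while those without TGF-beta spread widely, with preparation 2 lowest. The log2 change was -1.22 ± 0.17 in Cre cells (adjusted p = 8.38e-05) and -1.30 ± 0.17 in GFP cells (adjusted p = 4.96e-05), and the groups did not overlap. Within preparations it was between -1.54 and -0.91 in Cre cells and between -1.77 and -0.80 in GFP cells.

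Spry1 (ENSMUSG00000037211) had 51.0, 49.5, 41.0 and 12.4 CPM in Cre cells with TGF-beta, against 97.9, 109, 75.4 and 37.3 CPM without it. GFP cells had 54.6, 57.9, 52.6 and 15.8 CPM with TGF-beta, against 103, 114, 99.3 and 41.9 CPM without it. Preparation 4 was far below the others in all 4 groups, so that under each virus its library without TGF-beta lay below those of the other preparations with it, and the groups overlapped. The log2 change, -1.05 ± 0.47 in Cre cells (adjusted p = 0.105) and -0.99 ± 0.47 in GFP cells (adjusted p = 0.132), did not pass the test. With the preparation as a block it was -1.13 (adjusted p = 7.16e-07) and -1.05 (adjusted p = 1.63e-06), and without preparation 4 it passed unblocked as well, at -0.99 (adjusted p = 5.35e-05) and -0.94 (adjusted p = 8.16e-05).

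Spred proteins are relatives of the Sproutys that hold back RAS and RAF activation. Spred1 (ENSMUSG00000027351) had 84.5, 75.2, 104 and 77.5 CPM in Cre cells with TGF-beta, against 122, 82.0, 151 and 156 CPM without it. The GFP cells had 90.8, 73.5, 96.1 and 95.7 CPM with TGF-beta, against 143, 78.6, 133 and 178 CPM without it. Preparation 2 differed least between the media under both viruses, and its libraries without TGF-beta lay within the range of those with it. The log2 change was -0.58 ± 0.23 under both viruses and was not called (adjusted p = 0.0634 in Cre cells and 0.0675 in GFP cells). DESeq2, without a block, called it in Cre cells (adjusted p = 0.0477) and not in GFP cells (adjusted p = 0.0525). With the block it was -0.54 under both (adjusted p = 0.00476 and 0.00521), though in GFP cells the blocked call was lost without preparation 1 (-0.50, adjusted p = 0.0505).

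Spred2 (ENSMUSG00000045671) had 54.2, 47.2, 61.7 and 47.7 CPM in Cre cells with TGF-beta, against 50.0, 53.2, 65.8 and 55.2 CPM without it. Its levels in GFP cells were 58.6, 59.6, 63.5 and 69.7 CPM with TGF-beta, against 59.2, 52.3, 71.4 and 72.1 CPM without it. The ranges of the groups overlapped, and the sign of the difference varied between preparations. The log2 change was -0.09 ± 0.13 in Cre cells, with a 95% interval from -0.36 to 0.18, and -0.02 ± 0.13 in GFP cells, with an interval from -0.29 to 0.25 (adjusted p = 0.619 and 0.921).

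Neither phosphatase was called in the fit without the block. Dusp6 (ENSMUSG00000019960), whose product acts on ERK in the cytoplasm, had 17.6, 19.8, 23.2 and 50.4 CPM in Cre cells with TGF-beta, against 42.8, 28.1, 43.4 and 60.5 CPM without it. In GFP cells it had 19.7, 20.7, 21.3 and 57.7 CPM with TGF-beta, against 44.4, 28.5, 42.5 and 63.8 CPM without it. Preparation 4 was the highest in every group and differed least between the media, by -0.26 in Cre cells and -0.14 in GFP cells on the log2 scale, against -1.28 and -1.17 in preparation 1. The log2 change of Dusp6 was -0.65 ± 0.40 in Cre cells (adjusted p = 0.231) and -0.58 ± 0.40 in GFP cells (adjusted p = 0.302). With the block it was -0.73 (adjusted p = 0.00220) and -0.68 (adjusted p = 0.00427), and without preparation 4 it passed unblocked at -0.90 (adjusted p = 0.00243) and -0.91 (adjusted p = 0.00257). In GFP cells the blocked call was lost without preparation 3 (-0.55, adjusted p = 0.0549). Leaving out 1 library moved the unblocked value to between -1.11 and -0.45 in Cre cells and to between -1.12 and -0.36 in GFP cells, both ends of each range without a library of preparation 4.

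Dusp4 (ENSMUSG00000031530), whose product acts in the nucleus, had 118, 112, 156 and 104 CPM in Cre cells with TGF-beta, against 145, 94.9, 206 and 149 CPM without it. GFP cells had 122, 124, 147 and 156 CPM with TGF-beta, against 178, 98.4, 190 and 203 CPM without it. Preparation 2 was higher with TGF-beta under both viruses and the other 3 preparations were lower, and the groups overlapped. The log2 change was -0.28 ± 0.23 in Cre cells and -0.29 ± 0.23 in GFP cells, and was called neither without the block (adjusted p = 0.383 and 0.384) nor with it (adjusted p = 0.221 and 0.212). With the block and without preparation 2 it was -0.40 and -0.42 (adjusted p = 0.0287 and 0.0241).

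The PEA3 factors moved in opposite directions. Etv5 (ENSMUSG00000013089) had 43.6, 48.5, 47.6 and 47.0 CPM in Cre cells with TGF-beta, against 124, 154, 131 and 91.5 CPM without it. The GFP cells had 45.2, 59.4, 50.4 and 61.0 CPM with TGF-beta, against 131, 150, 156 and 96.7 CPM without it. No library with TGF-beta reached the lowest library without it, and the 4 Cre libraries with TGF-beta were nearly equal (SD 2.17 CPM). The log2 change was -1.42 ± 0.17 in Cre cells (adjusted p = 1.50e-05) and -1.30 ± 0.16 in GFP cells (adjusted p = 3.36e-05).

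Etv4 (ENSMUSG00000017724) was the 1 feedback gene that rose. It had 50.1, 45.1, 60.1 and 90.7 CPM in Cre cells with TGF-beta, against 25.7, 21.9, 38.6 and 39.7 CPM without it. Its levels in GFP cells were 51.4, 48.0, 64.5 and 84.2 CPM with TGF-beta, against 24.0, 23.4, 34.0 and 36.8 CPM without it. Every library with TGF-beta was above every library without it, and preparation 4 was the highest in each group. The log2 change was 0.97 ± 0.26 in Cre cells (adjusted p = 0.0111) and 1.07 ± 0.26 in GFP cells (adjusted p = 0.00635). Without the block it was not past a fold of 1.5 by glmTreat (adjusted p = 0.169 and 0.0970), and in Cre cells the unblocked call ended without preparation 1 (0.97, adjusted p = 0.0649). With the block the change was 0.96 in Cre cells (adjusted p = 2.17e-07) and 1.06 in GFP cells (adjusted p = 8.88e-08). The blocked call was kept whichever preparation was left out, in Cre cells also without preparation 1 (0.96, adjusted p = 4.54e-05).

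Etv1 (ENSMUSG00000004151) had 32.8, 26.3, 26.9 and 6.65 CPM in Cre cells with TGF-beta, against 53.4, 35.0, 50.8 and 47.1 CPM without it. In GFP cells it had 31.1, 26.5, 27.7 and 11.1 CPM with TGF-beta, against 63.4, 33.6, 55.2 and 52.6 CPM without it. The groups did not overlap, and preparation 4 with TGF-beta stood lowest of all under both viruses. Etv1 was called lower in GFP cells (-1.09 ± 0.39, adjusted p = 0.0463) and not in Cre cells (a fold of 0.498 with a log2 SE of 0.39, adjusted p = 0.0616), and with the block it was called in both (-1.15, adjusted p = 0.0105, and -1.11, adjusted p = 0.0116). DESeq2, without a block, called Etv1 lower in both (adjusted p = 0.0327 in Cre cells and 0.0201 in GFP cells). The difference between the viruses in this response was not called. The unblocked call in GFP cells was kept in 3 of the 16 fits that left out 1 library and was lost with no filter on low counts (adjusted p = 0.119).

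**Figure D2:**
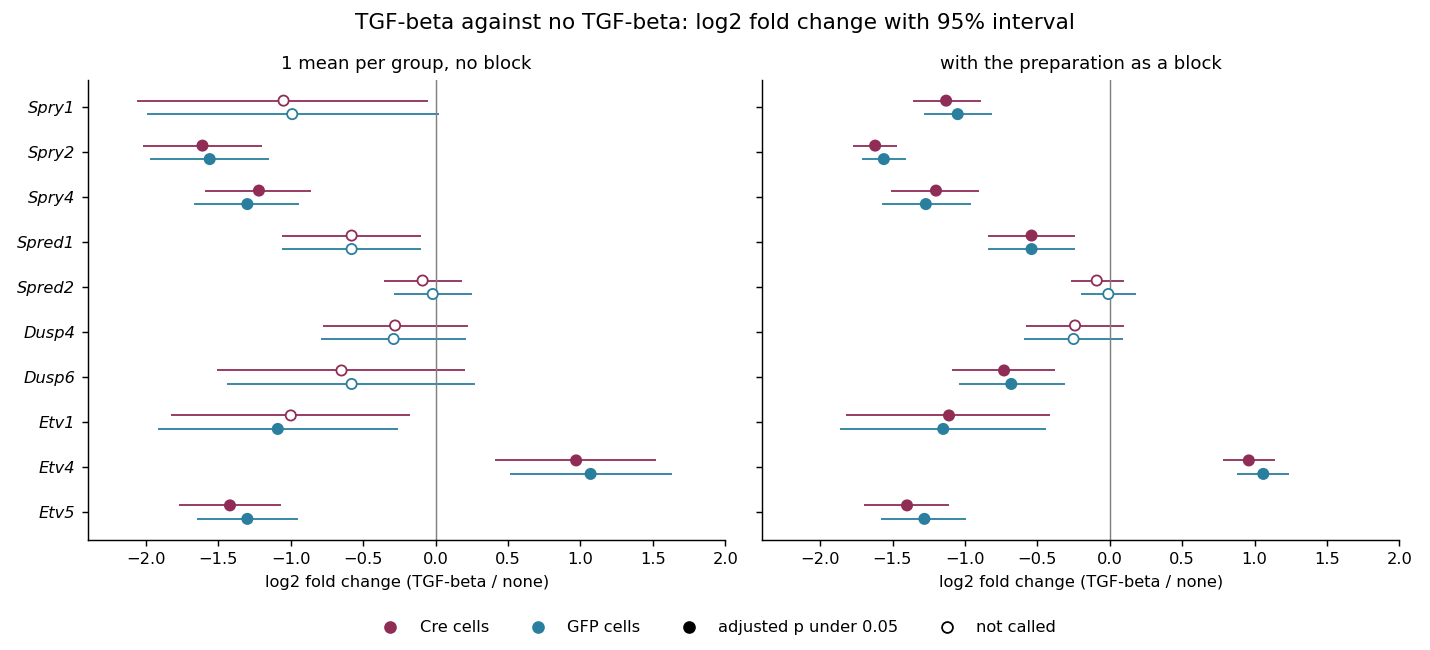
Log2 fold change of each feedback gene, TGF-beta over no TGF-beta, in Cre and GFP cells, with its 95% interval, in the fit without a block (left) and with the preparation as a block (right). Filled points passed an adjusted p of 0.05. The block narrows the intervals of Spry1, Spred1 and Dusp6, which are then called under both viruses. Etv1 is then called in Cre cells too, while Spred2 and Dusp4 stay uncalled.

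Counted by separation alone, 4 genes (Spry2, Spry4, Etv1 and Etv5) had all 4 libraries with TGF-beta below all 4 without it under both viruses, where 15.8% of all genes did so in Cre cells and 14.7% in GFP cells. Etv4 was the 1 gene above in both, where 12.5% and 15.1% of all genes were. Each share is for 1 virus alone, and that for both viruses together was not computed.

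The size of the response varied between preparations for some genes and little for others. Spry2 changed by -1.77 to -1.40 in Cre cells and -1.65 to -1.41 in GFP cells over the 4 preparations. Etv1 ran from -2.81 in preparation 4 to -0.41 in preparation 2 in Cre cells, and from -2.23 to -0.35 in the same preparations in GFP cells. Preparation 4 had the most negative differences of Spry1 (-1.58 in Cre cells and -1.40 in GFP cells), Spred1 (-1.01 and -0.89) and Etv1. In the same preparation the differences of Dusp6 and Etv5 (-0.96 and -0.66) were the smallest in size.

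**Figure D3:**
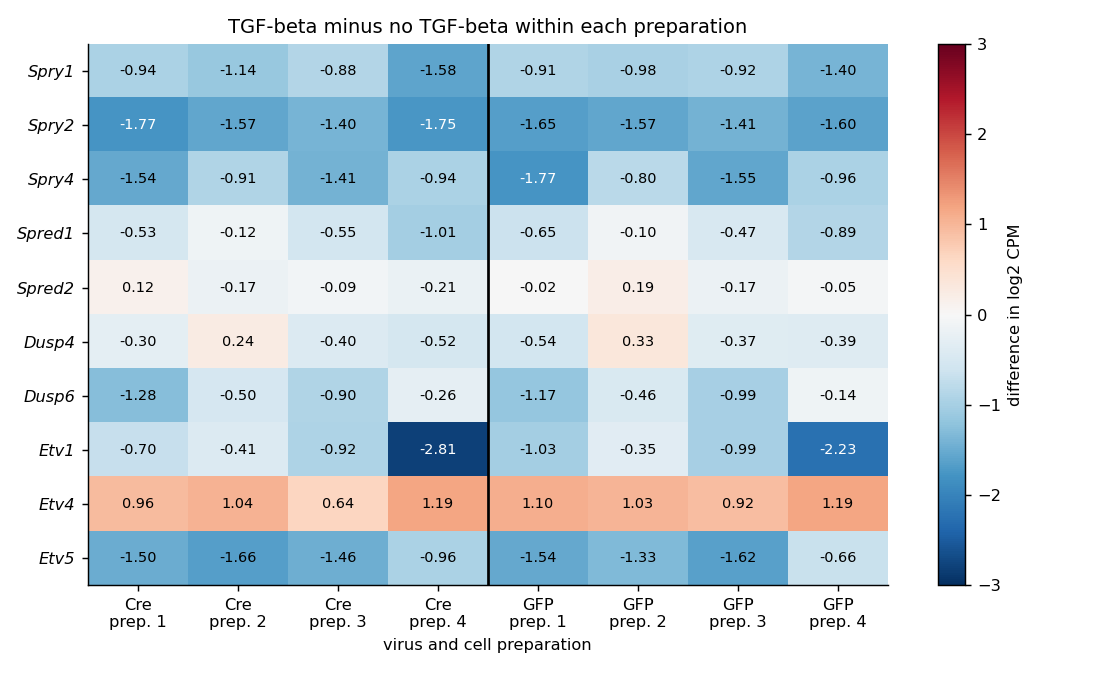
Difference in log2 CPM, TGF-beta minus no TGF-beta, within each of the 4 preparations in Cre (left) and GFP cells (right), for each feedback gene; blue is lower and red is higher with TGF-beta. Spry1, Spry2, Spry4, Spred1, Dusp6, Etv1 and Etv5 are below 0 in all 8 columns and Etv4 is above 0 in all 8.

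The preparations also differed in level whatever the medium. Averaged over the 4 groups, preparation 4 deviated from the group means by -1.19 on the log2 scale for Spry1 and -0.40 for Spry2, and by 0.80 for Dusp6 and 0.45 for Etv4. For Spry1, Spry2, Dusp6 and Etv4 all 4 libraries of preparation 4 deviated the same way. Etv1 averaged -0.62 in preparation 4, but there only its libraries with TGF-beta were low. The range over the 4 preparations was smallest for Spred2 (0.31), Spry4 (0.34) and Etv5 (0.35) and was 1.71 for Spry1. The macrophage and leukocyte markers summed to 840 to 1351 CPM in the 4 libraries of preparation 4, against 380 to 761 CPM in the other 12, and their part in these levels was not tested.

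Summed markers of other cells were also compared between the media. The endothelial sums did not overlap between the media under either virus, while the macrophage and leukocyte, pericyte, cardiomyocyte and mesothelial sums did. The 8 endothelial markers summed to 19.4 to 24.0 CPM in Cre cells with TGF-beta, against 36.4 to 49.8 CPM without it. In GFP cells they summed to 19.7 to 29.9 CPM with TGF-beta, against 38.1 to 50.8 CPM without it. The 8 macrophage and leukocyte markers summed to 380 to 893 CPM in Cre cells with TGF-beta and 524 to 1351 CPM without it, and to 394 to 840 CPM in GFP cells with it and 618 to 1277 CPM without it. The 6 pericyte markers, 2 of them under 1 CPM in every library, summed to 196 to 474 CPM in Cre cells with TGF-beta and 265 to 597 CPM without it, and to 258 to 603 CPM in GFP cells with it and 303 to 636 CPM without it. Under each virus 3 of them were called lower, and Cspg4 was called higher, by 2.59 in Cre cells and 2.62 in GFP cells on the log2 scale (adjusted p = 1.31e-05 and 1.28e-05). The cardiomyocyte markers, 5 of 7 under 1 CPM, summed to 3.15 to 12.3 CPM in Cre cells with TGF-beta and 8.01 to 23.4 CPM without it, and to 3.12 to 6.40 CPM in GFP cells with it and 5.17 to 16.7 CPM without it. The mesothelial markers, 3 of 7 under 1 CPM, summed to 3.54 to 5.33 CPM in Cre cells with TGF-beta and 4.18 to 8.61 CPM without it, and to 2.79 to 3.85 CPM in GFP cells with it and 3.05 to 5.65 CPM without it. The part of other cells in the feedback genes was not tested, and in bulk RNA fewer cells of a type and less RNA per cell cannot be told apart. Of the fibroblast markers themselves, 6 of 8 were called lower with TGF-beta under each virus, among them Pdgfra, with log2 changes of -2.79 in Cre cells and -2.68 in GFP cells, where 16.3% and 15.3% of all genes were called lower. The other 2, the collagen genes Col1a1 and Col1a2, were not called. The log2 change of Col1a1 was 0.75 in Cre cells and 0.85 in GFP cells (adjusted p = 0.126 and 0.0893), and it was called higher in both with the block (0.73 and 0.83, adjusted p = 1.40e-06 and 3.74e-07). That of Col1a2 was 0.21 and 0.25 (adjusted p = 0.638 and 0.588), and with the block it was called in GFP cells (0.24, adjusted p = 0.0162) and not in Cre cells (0.18, adjusted p = 0.0577).

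To compare genes, levels were taken per kilobase of exon. Without TGF-beta Spry2 led in both Cre cells (92.0 CPM per kb) and GFP cells (96.2), followed by Dusp4 (54.3 and 61.1), Etv5 (30.5 and 32.5) and Spry1 (27.5 and 30.8). Etv1 came last (3.50 and 3.85), and the step from Etv4 to Etv1 was the only one between neighbours whose library ranges did not overlap. The order depends on the exon length, taken over all annotated exons of a gene, which was 13.3 kb for Etv1 and 3.1 kb for Etv4. In CPM without TGF-beta, Etv1 (46.6 in Cre cells and 51.2 in GFP cells) was above Etv4 (31.4 and 29.6). With TGF-beta Dusp4 led (44.8 CPM per kb in Cre cells and 50.0 in GFP cells) followed by Spry2 (30.1 and 32.6), with ranges that did not overlap. Etv4 had rank 3 with TGF-beta (19.8 and 20.0) and rank 9 without it (10.1 and 9.53). Dusp6, Spry4 and Etv1 closed the order with TGF-beta, each apart from the next, at 8.87, 5.00 and 1.74 CPM per kb in Cre cells and 9.53, 5.07 and 1.81 in GFP cells.

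Cre against GFP virus asks whether the virus meant to delete Has2 changed the feedback genes. None of the 10 was called in either medium, with or without the block. With TGF-beta, the log2 differences ran from -0.25 (Spred2) to -0.01 (Etv4), all 10 below 0, and without TGF-beta from -0.19 (Spred2) to 0.09 (Etv4), 9 of 10 below 0. In the fits that left out 1 library, 6 of the 10 genes took both signs with TGF-beta, and 7 did so without it. The values went as far as -0.56 and 0.43, both for Dusp6 with TGF-beta, without a library of preparation 4. Such fits leave the preparations unbalanced between the viruses. Without the block, leaving out a whole preparation kept Dusp6 between -0.17 and -0.02 with TGF-beta. Spry4, Spred1, Etv1 and Etv4 still took both signs there, up to 0.03 (Spred1). Without TGF-beta no gene changed sign on leaving out a whole preparation unblocked, while with the block Spred1 reached 0.01. The share of all genes called was 0% in both media without the block. It was 0.0654% with TGF-beta and 0.170% without it when the block was used. At an unadjusted p under 0.05 in the fit without the block stood 268 of all genes with TGF-beta and 169 without it, and 0 feedback genes in either. DESeq2 called 0 genes with TGF-beta and 3 without it, no feedback gene among them.

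The intervals show what size of difference these data leave possible. Over the 10 genes the 95% intervals of Cre over GFP reached from -1.23 to 0.77 with TGF-beta and from -1.16 to 0.83 without it. With the block they reached from -0.79 to 0.62 and from -0.80 to 0.55, with Etv1 the widest. For Spry2 the blocked interval was -0.28 to 0.03 with TGF-beta and -0.21 to 0.08 without it. The groups of all 10 genes overlapped in both media, where 1.58% of all genes with TGF-beta and 1.47% without it did not.

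Spred2 had the largest difference between the viruses. With TGF-beta it was at 52.7 ± 6.81 CPM in Cre cells and 62.8 ± 5.07 CPM in GFP cells (SD, n = 4 each), and the Cre library was the lower one in 4 of 4 preparations. The log2 difference with the block was -0.26, with an interval from -0.45 to -0.07 and an adjusted p of 0.270. Spry1 and Spred2 were the 2 feedback genes at an unadjusted p under 0.05 there in the blocked fit, as were 13.3% of all genes. Without TGF-beta none was, where 5.77% of all genes were. With TGF-beta 4 feedback genes had the Cre library below the GFP library in 4 of 4 preparations (14.1% of all genes), and without it 3 were (13.3% of all genes).

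**Figure D4:**
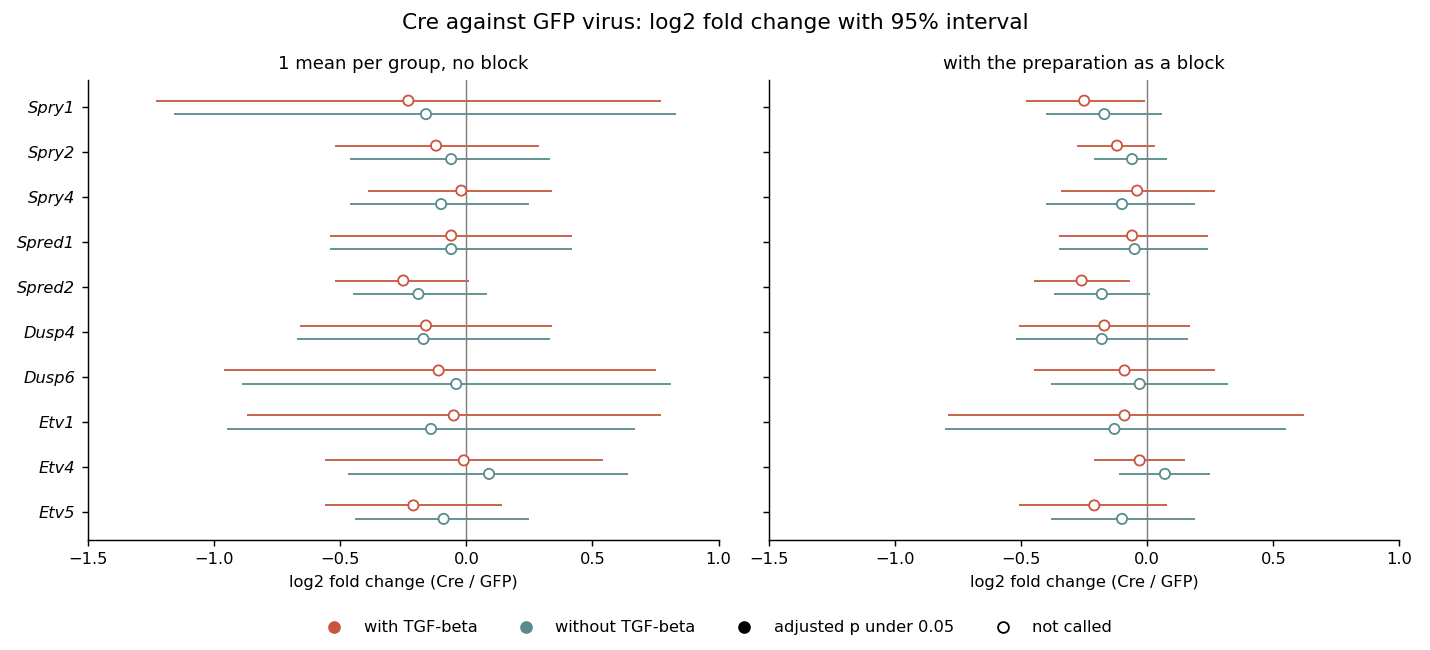
Log2 fold change of each feedback gene, Cre over GFP virus, with and without TGF-beta, with its 95% interval, without a block (left) and with the preparation as a block (right). All points are open because none passed the test; all 10 with TGF-beta lie between -0.25 and -0.01 in the left panel.

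The response to TGF-beta was also compared between the viruses, as the change in Cre cells minus the change in GFP cells. The differences ran from -0.12 (Etv5) to 0.08 on the log2 scale over the 10 genes and none was called, nor was any gene of all those tested (0%), with or without the block. At an unadjusted p under 0.05 there were 90 of all genes without the block and 501 with it, and 0 feedback genes in either. The 95% intervals of the feedback genes reached from -1.47 to 1.34, and from -0.94 to 1.02 with the block. The Cre and GFP responses above can be set side by side but were not shown to differ or to be equal.

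The rest of the FGF-ERK pathway was described from 3 lists chosen by known function. Of 17 other inhibitors of the chain, 15 were tested, and with TGF-beta 3 were called higher and 2 lower in Cre cells and 4 higher and 2 lower in GFP cells, where 30.3% and 29.1% of all tested genes were called in either direction. With the block 7 were called higher and 4 lower in Cre cells and 6 higher and 4 lower in GFP cells, against 52.5% and 49.1% of all tested genes. Their unblocked median log2 change was 0.09 in Cre cells and 0.10 in GFP cells. Dusp1, an inducible nuclear phosphatase of several MAP kinases, fell by 1.17 in Cre cells (adjusted p = 0.000267) and by 1.18 in GFP cells (adjusted p = 0.000248). Dusp8, which acts mainly on the stress kinases, rose by 1.26 and 1.31 (adjusted p = 0.000644 and 0.000552). Dusp9, an ERK phosphatase, rose by 3.24 and 2.66 (adjusted p = 0.000837 and 0.00311) but was scarce, at 2.38 CPM with TGF-beta and 0.246 CPM without it in Cre cells and at 2.73 and 0.439 CPM in GFP cells. Rasa2, which switches RAS off, rose by 0.94 in Cre cells and 0.64 in GFP cells (adjusted p = 0.00191 and 0.0209). Dusp7, a cytoplasmic ERK phosphatase, fell by 0.41 and 0.42 (adjusted p = 0.0203 and 0.0177).

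Of 14 other transcripts that ERK activity induces, 6 were called higher with TGF-beta and 3 lower under each virus. Of all tested genes, 14.0% were called higher and 16.3% lower in Cre cells, and 13.8% and 15.3% in GFP cells. The median log2 change of the 14 was 0.49 in Cre cells and 0.50 in GFP cells. With the block 8 were called higher and 4 lower under each virus. The shares of all tested genes were then 25.2% and 27.3% in Cre cells and 22.6% and 26.5% in GFP cells. Hbegf, a ligand of the EGF receptor, had 347 to 865 CPM in Cre cells with TGF-beta, against 37.6 to 79.4 CPM without it, a log2 change of 3.16 ± 0.37 (adjusted p = 1.62e-05). In GFP cells Hbegf had 378 to 667 CPM with TGF-beta, against 34.3 to 80.9 CPM without it, also a change of 3.16 ± 0.37 (adjusted p = 1.69e-05). Its groups were far apart under both viruses. Ier3, an early response gene, rose by 1.57 and 1.70 (adjusted p = 7.95e-06 and 4.13e-06 in Cre and GFP cells), and Myc, a growth-promoting transcription factor, by 1.59 and 1.66 (adjusted p = 0.000390 and 0.000286). Fos, a subunit of AP-1, fell by 1.58 in Cre cells and 1.21 in GFP cells (adjusted p = 0.000523 and 0.00380), and Ccnd1, the G1 cyclin, fell by 1.20 and 1.18 (adjusted p = 0.00151 and 0.00165).

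Of 24 receptors and chain components, 23 were tested, and 3 were called higher and 4 lower with TGF-beta in Cre cells and 2 higher and 4 lower in GFP cells, with medians of 0.04 and 0.03. The share called in Cre cells is near that of all tested genes (30.3%, and 29.1% in GFP cells). With the block 6 were called higher and 6 lower in Cre cells and 6 higher and 5 lower in GFP cells. In either direction, 52.5% and 49.1% of all tested genes were then called. Fgfr2, an FGF receptor, fell by 1.96 in Cre cells and 2.11 in GFP cells (adjusted p = 0.00187 and 0.00124), but at 1.38 and 1.40 CPM with TGF-beta, against 5.37 and 6.03 CPM without it, it was scarce in every group. Fgfr1, another FGF receptor, named after its values were seen, averaged 399 ± 33.8 CPM in Cre cells with TGF-beta and 424 ± 52.8 CPM without it, and 441 ± 10.9 CPM in GFP cells with it and 448 ± 39.0 CPM without it. Its log2 change was -0.09 in Cre cells and -0.02 in GFP cells (adjusted p = 0.531 and 0.899). Ksr1, a scaffold of RAF, MEK and ERK, fell by 1.42 and 1.38 (adjusted p = 0.000960 and 0.00125), and the adaptor Shc1 by 0.55 and 0.44 (adjusted p = 0.000345 and 0.00193). Map2k1, which encodes MEK1, rose by 0.56 and 0.73 (adjusted p = 0.00368 and 0.000594).

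**Figure D5:**
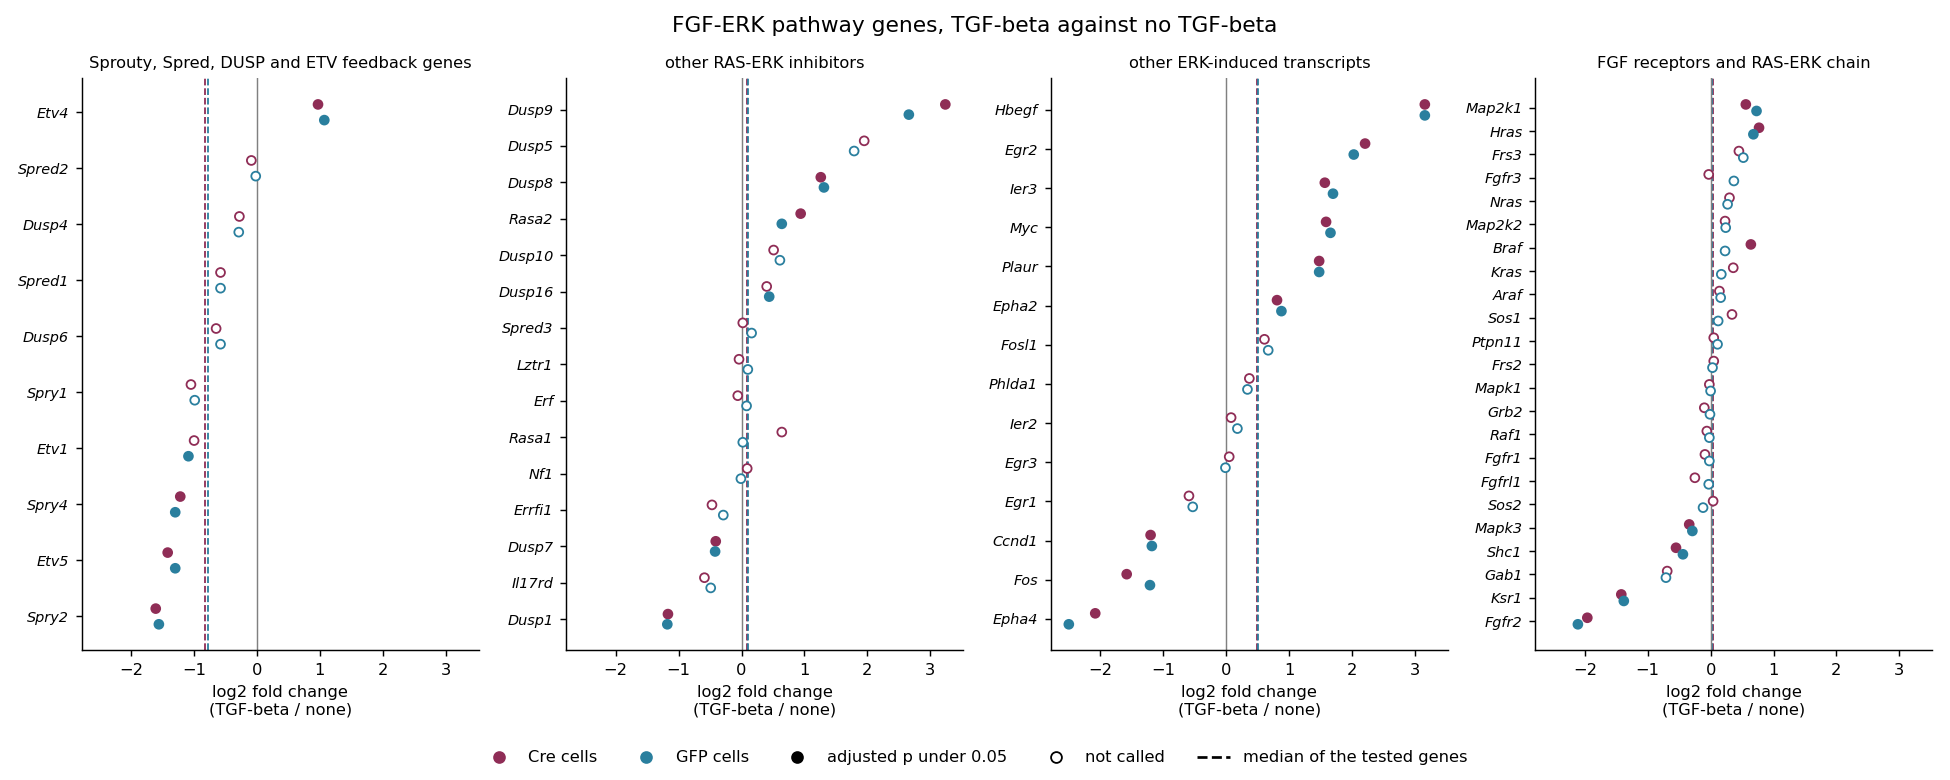
Log2 fold change, TGF-beta over no TGF-beta, of every tested gene of the 10 feedback genes and of the 3 other pathway lists, in Cre (upper point of each pair) and GFP cells (lower), with filled points past an adjusted p of 0.05 and dashed lines at each list's median. The feedback genes have medians of -0.83 and -0.78, while the other ERK-induced transcripts reach from -2.08 to 3.16 in Cre cells with a median of 0.49.

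The genes whose profile over the 16 libraries was most like that of 3 feedback genes were sought by the root mean square difference of centred log2 CPM, among 11258 genes. For Spry4 they were Trim47 (0.16), Layn (0.18) and Fam117a (0.19), where the profile of Spry4 itself departs from its own mean by 0.66. For Etv5 they were Camkk2 (0.15), Sord (0.18) and Rasa3 (0.19), against 0.71 for Etv5 itself. For Dusp6 they were Hmga1 (0.23), Arhgap22 (0.24) and Hmga1b (0.26), against 0.63, and Hmga1 and Hmga1b are near-identical copies whose counts are uncertain. Among the feedback genes themselves the closest pairs were Spred1 and Dusp4 (0.20), Spred2 and Dusp4 (0.24), Spry2 and Etv5 (0.28) and Spry4 and Etv5 (0.30), and the farthest was Spry1 and Etv4 (1.47). By this measure genes that vary little also lie close to each other. Over all 16 libraries neither Spred2 nor Dusp4 was called with TGF-beta, with or without the block, while Spry2 and Etv5 were called lower under both viruses. The differences are descriptions over libraries that share the medium and the preparation.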

How the data were processed

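In all, 16 libraries of cultured mouse cardiac fibroblasts were sequenced after NEBNext Ultra II preparation of DNase-treated Trizol RNA, per the labels' protocols. The data are raw read counts, deposited without normalization for 55414 Ensembl identifiers. The submitters' processing notes name FastQC 0.10.1, HTSeq 0.10.0 and the build mm39 (GRCm39). The sources used here do not give the aligner, gene annotation or strand setting, so counts of genes that overlap or have close copies are uncertain. Symbols and exon lengths are those of GENCODE M21, on an earlier build, which matched 52081 identifiers with 99.9% of the counts. Column names gave each column its sample.

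The edgeR filter filterByExpr (counts of 10, totals of 15) kept 15285 genes, and TMM factors lay between 0.908 and 1.12. All 16 libraries entered 1 fit with 1 mean per group and no block (edgeR 4.0.16, limma 3.58.1, R 4.3.3), tested by quasi-likelihood F with robust estimation. Adjustment was by Benjamini-Hochberg over every gene tested, and a call needed an adjusted p under 0.05. The SE of a log2 fold change is its size over the root of F.

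Among the library names, only those of GFP cells without TGF-beta hold a letter for sex. Same-numbered libraries carry 1 preparation code in their names, which pairs them. The r of their deviations from group means was 0.323 to 0.838 over 24 pairs (median 0.497), and at most 0.292 over the 72 others. For the feedback genes, values of a blocked fit, 1 term per preparation, are printed where they alter a call; the pathway lists have its counts. The block lowered the biological coefficient of variation to 0.123, from 0.254. The number of hearts per preparation is not stated, so the spread measured is that of preparations. The fit without the block treats the libraries as independent and keeps differences in level between preparations in its error. Its p-values therefore ignore the pairing. P-values of the blocked fit cover the spread that remains once each preparation's own level is taken out.

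The feedback genes, pathway lists and markers were chosen with earlier results of these data known. Text names all 10 feedback genes, up to 4 genes per pathway list by smallest adjusted p in each TGF-beta comparison, and 3 genes most like each of Spry4, Dusp6 and Etv5. Alternatives used DESeq2 1.42.0, RLE factors, other filters (none, or 5 CPM in 4 libraries), the compared libraries alone, glmTreat at a 1.5 fold, and fits that omit a library or preparation.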

Additional observations from a re-analysis of the deposited data

Results flagged for a closer look

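Each feedback gene was looked at in each group of 4 for a library far from the other 3, by Dixon's criterion for the gap over the range at its 95% critical value. Of the 40 sets, 2 passed, and chance alone flags about 1 in 20. Both concern preparation 4 in GFP cells with TGF-beta. Spry1 was at 15.8 CPM there, against 52.6 to 57.9 CPM in the other 3 libraries (gap over range 0.874). Dusp6 was at 57.7 CPM there, against 19.7 to 21.3 CPM in the other 3 (gap over range 0.958). The Cre library of the same preparation with TGF-beta was also the lowest of its group for Spry1, at 12.4 CPM, and the highest for Dusp6, at 50.4 CPM, without passing the criterion.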

How the results depend on the processing

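No called change of a feedback gene reversed direction under any alternative run, and none of the scalings moved the median of all genes by over 0.1. Over all genes, TGF-beta against none called 4629 genes in Cre cells (8030 with the replicate block, 1528 with glmTreat) and 4445 in GFP cells (7498 and 1481). Of the feedback genes it called 4 in Cre cells (8 with the block) and 5 in GFP cells (8 with the block, 3 with glmTreat). In Cre cells the call of Etv4 was also lost with glmTreat (adjusted p = 0.169). DESeq2, without a block, called 5 feedback genes lower and 1 higher in Cre cells and 4 lower and 1 higher in GFP cells. Leaving out 1 library gave 3472 to 4914 and 3361 to 5192 genes, and 4 to 5 and 4 to 6 feedback genes, in Cre and GFP cells. Leaving out 1 preparation gave 2317 to 6479 and 2239 to 6055 genes, and 3 to 7 and 4 to 7 feedback genes. With the block, leaving out 1 preparation gave 6288 to 8586 (6972 without preparation 3) and 5719 to 8051 genes, and 8 to 9 and 7 to 9 feedback genes. Cre against GFP called 0 genes in both media. With TGF-beta it called 10 with the block and 0 to 232 on leaving out 1 preparation in the blocked fit. Without TGF-beta it called 3 with DESeq2, 26 with the block, 0 to 17 on leaving out 1 preparation and 0 to 114 in the blocked fit, both highest without preparation 4. No feedback gene was called for Cre against GFP or for the difference between responses in any alternative. The cause of these shifts was not tested. Depth was not varied, so what it limits was not tested.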
